A study of Mus musculus with 4 samples.

Results

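A set of 10 genes of astrocytes and of their reactive state was followed through the cells of HGG-MYCN mouse tumors. They are Gfap, Aldoc, Serpina3n, C4b, Mt3, Aqp4, Nnat, Igfbp5, Ntrk2 and Gja1, 10 of the 21861 features of the files, and all 10 had UMIs in the cells described here. The genes were chosen by their levels in a cluster of astrocyte-like cells of these same 4 tumors, so their levels in that cluster are given as a description. The age test across all genes also covered that cluster, and nothing is read from its calls on these genes. Tumors of hGFAP-cre::TP53Fl/Fl::lsl-MYCN mice were dissociated, sorted for living cells and sequenced with droplet-based 3′ chemistry, which counts mRNA molecules by unique molecular identifiers (UMIs). Mouse 4 and mouse 5 were 43 days old (P43) and mouse 6 and mouse 7 were 70 days old (P70), with 1 library per mouse. All 4 mice carried the same alleles, so that no mouse served as an untreated control, and age was the comparison between groups. In this model Cre under the human GFAP promoter acts in radial glia, from which neurons, oligodendrocytes and astrocytes arise, removes Trp53 and switches on human MYCN and luciferase (FLUC), whose UMIs are summed below as the reporter of recombined cells. A cell keeps the reporter once Cre has acted, whatever its later type, and the Gfap described here is the mouse gene itself.

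Astrocytes supply neurons with metabolites, clear glutamate and keep water and potassium in balance, and they are linked to each other and to vessels by channels in their membranes. After injury, inflammation or tumor growth they become reactive. They then raise the intermediate filament protein GFAP, and often secreted factors of the acute phase and of complement. The same genes are also used by gliomas whose cells take on an astrocyte-like state.

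The libraries held between 13106786 and 40621958 UMIs, and 10975 of 11834 barcodes were kept. The median depth of kept cells ranged from 1419 UMIs in mouse 4 to 10450 UMIs in mouse 7. No pair of libraries shared more than 3 barcodes. Levels are given in CPM, the UMIs of a gene scaled to a common total of UMIs summed over the cells of a class in a mouse. One UMI stands for 1 captured transcript end, so that CPM here needs no correction for gene length, but capture still differs between genes. A count of 0 allows up to 3 UMIs, and the CPM that 3 UMIs would give is named where a gene had none. All intervals and such limits cover counting error only.

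Astrocyte-like (AC-like) cells were the 283 cells, 2.58% of the kept cells, of a cluster that carried the reporter, and together they raised 10 of 16 astrocyte markers, none of them among the 10 genes. They also raised 9 of 10 markers of ependymal cells, the ciliated lining of the ventricles. The astrocyte markers were not raised throughout. Sub-clusters of 66, 59 and 29 of these cells raised 13, 10 and 8 of the 16, and those of 94 and 35 only 3 and 1. AC-like is used below as the name of the cluster and not of each cell in it. Of these cells 15 and 10 came from mice 4 and 5, and 53 and 205 from mice 6 and 7. A part of the same cluster, 55 cells led by Dcn and Col1a1, held 182.6 CPM of the reporter and raised 7 of 9 mural markers and was kept apart as the Dcn/Col1a1 sub-cluster, a step decided after its genes had been seen. Other clusters with the reporter were 4109 oligodendrocyte-like (OL-like) and 707 neuroblast-like (NB-like) cells, and 890 cells of a cluster that carried the reporter but was led by Mal and Mog, genes of mature oligodendrocytes (the Mal/Mog cluster, OL/MOL in the plot). The limit of 500 CPM of the reporter was met by whole clusters and not in each mouse. At P43 NB-like cells held 299.8 and 301.7 CPM of the reporter and the Mal/Mog cluster 238.5 and 202.5 CPM. The AC-like cells of mouse 4 held 153.0 CPM of the reporter, and those of mouse 5 held 1615 CPM. The P43 cells under the limit are not called tumor cells here.

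The astrocyte label holds for these cells only in part. At P70, the reporter stood at 2358 and 2179 CPM in mice 6 and 7, and the 16 astrocyte markers summed to 2387 and 1064 CPM, against 423.8 and 245.8 CPM in the OL-like cells of the same mice. The sum was not particular to AC-like cells. In mouse 7, oligodendrocyte precursor cells (1750 CPM) and mural cells (1535 CPM) held more, while mural cells of mouse 6 held 1304 CPM. Mural cells of mice 4 and 5 held 10025 and 9868 CPM. At P43 the astrocyte markers summed to 2186 and 3381 CPM in AC-like cells, so that the ages overlapped. The 8 markers of OL-like cells summed to 2332 and 2015 CPM in AC-like cells at P70, above the astrocyte sum in mouse 7, and to 1115 and 1046 CPM at P43. Glutamate transporter genes were uneven, as Slc1a2 reached 161.5 CPM in mouse 6 but 5.40 CPM in mouse 7, whereas Slc1a3 was at 368.2 and 167.4 CPM. The P70 cells also held Sox10, a regulator of oligodendrocytes and of neural crest glia, at 264.9 and 217.4 CPM. At P43, the 15 cells of mouse 4 held 153.0 CPM of the reporter and 5313 CPM of endothelial markers, and the 10 cells of mouse 5 held 1615 CPM of the reporter and 812.3 CPM of endothelial markers. Mural markers summed to 2361 CPM in the former and 487.4 CPM in the latter. The 10 ependymal markers summed to 5466 and 6732 CPM in these cells of mouse 4 and mouse 5, against 135.7 and 180.3 CPM at P70. With 45740 and 98482 UMIs in all, the P43 cells allow only coarse levels.

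Gfap, the intermediate filament gene that names this state, was high in AC-like cells of P70 and at or under 7.89 CPM in each other class with at least 10 cells in a mouse. Gfap (GRCm38 11:102887336-102900912, minus strand) reached 1379 CPM (427 UMIs) in AC-like cells from mouse 6 and 138.4 CPM (205 UMIs) in those from mouse 7. At P43 it had no UMI in mouse 4, where 3 UMIs would give 65.6 CPM, and 50.8 CPM (5 UMIs) in mouse 5. In OL-like cells it stayed between 0.214 and 1.58 CPM in the 4 mice, and it had no UMI in oligodendrocyte precursor cells (OPCs). The AC-like level was thus 87.9 times that of OL-like cells in mouse 7, the only mouse with more than 3 Gfap UMIs in both classes. To compare shares of cells at 1 depth, each cell was thinned to 2000 UMIs, which left 40 of 53 AC-like cells of mouse 6 and 195 of 205 of mouse 7. Gfap was found in 50% of these cells of mouse 6 (95% exact binomial interval 33.8 to 66.2%) and in 14.4% of those of mouse 7 (9.76 to 20.1%), against 0.131% or less of the myeloid cells at P70, which should not express it. Before thinning, the AC-like cells had medians of 3888 and 6684 UMIs, against 5377.5 and 2321 UMIs in myeloid cells of the same mice, and the unthinned shares of Gfap in AC-like cells were 60.4 and 18.5%. In mouse 6, 1 cell held 108 and another 107 of the 427 Gfap UMIs.

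Serpina3n and C4b, which both encode secreted proteins of the blood and of reactive glia, were high in the P70 AC-like cells too. Serpina3n, an inhibitor of serine proteases (12:104406729-104414329, plus strand), reached 994.9 and 269.4 CPM in AC-like cells at P70, and had 1 UMI in each P43 mouse. C4b, complement component 4 (17:34728380-34743882, minus strand), was at 578.2 and 250.5 CPM at P70 and at 43.7 CPM (2 UMIs) and 50.8 CPM (5 UMIs) at P43. For both genes the levels of the 2 ages did not overlap, but the P43 values rest on at most 5 UMIs. C4b has a near-identical copy, C4a, and Serpina3n lies among related genes, so that reads may be split between copies in the authors' counting. At 2000 UMIs, Serpina3n was seen in 62.5% (45.8 to 77.3%) of the cells of mouse 6 and in 32.8% (26.3 to 39.9%) of those of mouse 7. C4b was seen in 62.5% (45.8 to 77.3%) and 35.9% (29.2 to 43.1%).

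Aldoc, a glycolytic aldolase of astrocytes (11:78322968-78327781, plus strand), had the most even level of the 10 genes in P70 AC-like cells, with 313.3 and 335.6 CPM in mice 6 and 7. This was 10.6 and 12.6 times its level in OL-like cells of the same mice. The evenness did not hold cell by cell, as Aldoc was found in 20% of the thinned cells of mouse 6 and in 45.6% of those of mouse 7. In mouse 6, 1 cell held 29 of its 97 UMIs. At P43, Aldoc had 2 UMIs in mouse 4 and 6 UMIs in mouse 5 (60.9 CPM). Igfbp5, a secreted binding protein of insulin-like growth factors (1:72857932-72874884, minus strand), was similarly even at P70 with 432.8 and 398.4 CPM, 30.9 and 34.5 times its OL-like level. Its P43 levels spanned the P70 ones, with 459.1 CPM in mouse 4 and 40.6 CPM (4 UMIs) in mouse 5.

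Mt3, Nnat and Ntrk2 were higher in the AC-like cells of P43 than of P70. Mt3, the brain metallothionein that binds zinc and copper (8:94152607-94154146, plus strand), was at 1487 and 3168 CPM in mouse 4 and mouse 5 and at 174.4 and 58.1 CPM in mouse 6 and mouse 7. Nnat, a small membrane protein of the developing brain (2:157560078-157562522, plus strand), was at 2842 and 5199 CPM at P43 and at 58.1 and 151.2 CPM at P70. In mouse 6 its AC-like level was 0.582 times that of OL-like cells. Ntrk2, the receptor of BDNF, which astrocytes carry largely in a truncated form that 3′ counts do not separate (13:58806569-59133970, plus strand), was at 524.7 and 456.9 CPM at P43 and at 119.5 and 187.0 CPM at P70. The 2 ages did not overlap for these 3 genes.

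Aqp4, the water channel of astrocyte endfeet (18:15389496-15410982, minus strand), had P70 AC-like levels of 158.3 CPM (mouse 6) and 26.3 CPM (mouse 7) and P43 levels of 43.7 CPM (mouse 4, 2 UMIs) and 101.5 CPM (mouse 5, 10 UMIs). Outside the AC-like cells and OPCs it stayed at or under 1.97 CPM in each class with at least 10 cells. Gja1, which encodes connexin 43 of gap junctions (10:56377330-56402513, plus strand), was at 196.8 and 233.5 CPM in AC-like cells at P43 and at 109.8 and 9.45 CPM at P70.

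**Figure D1:**
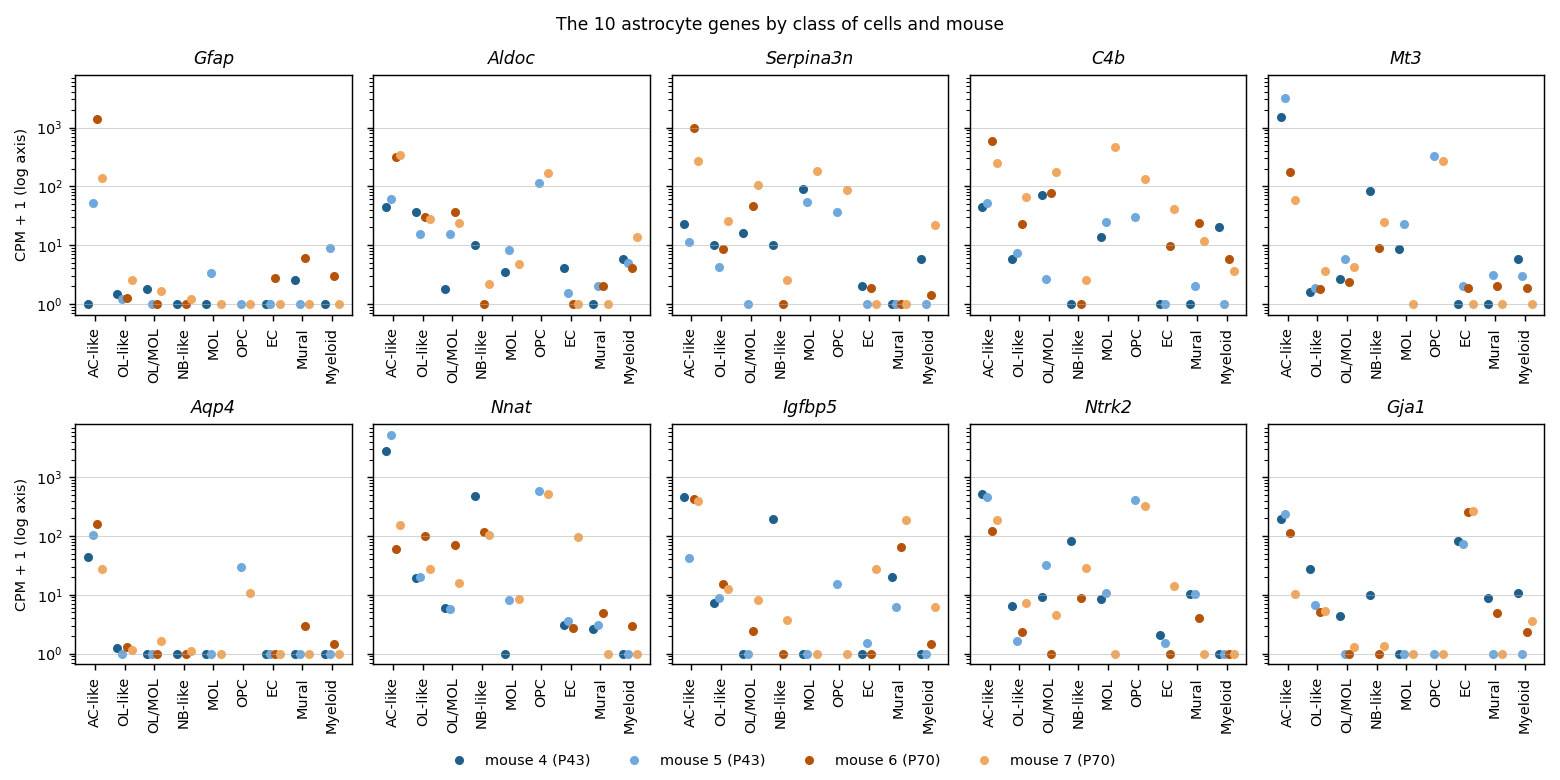
Levels of the 10 genes (CPM plus 1 on a log axis) in AC-like, OL-like, Mal/Mog (OL/MOL), NB-like, mature oligodendrocyte (MOL), OPC, endothelial (EC), mural and myeloid cells. Each point is a mouse with at least 10 cells of the class, in blues for P43 and oranges for P70. Gfap and Aqp4 stand out in AC-like cells, whereas Nnat, Mt3 and Ntrk2 are also high in OPCs and Gja1 in EC.

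Summed, the 10 genes made up 4319 CPM of the AC-like cells in mouse 6 and 1824 CPM in mouse 7, a mean of 3072 ± 1764 CPM (SD, n = 2 mice). At P43 the sums were 5662 and 9372 CPM, a mean of 7517 ± 2623 CPM (SD, n = 2), of which Mt3 and Nnat were the larger part. In OL-like cells the same sum lay between 58.3 and 179.7 CPM and in myeloid cells between 13.8 and 44.1 CPM. The makeup differed between the ages, with Gfap, Serpina3n, C4b and Aldoc higher and Mt3, Nnat, Ntrk2 and Gja1 lower in both P70 mice than in both P43 mice. How many of all genes separate the ages in this way was not counted. Nothing is therefore read from this order, here or for the single genes above.

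Most P43 UMIs of Mt3 and Nnat were held by a few cells with ependymal genes. In mouse 4, 1 cell with 9 of the 10 ependymal genes held 67 of the 68 Mt3 UMIs and 129 of the 130 Nnat UMIs. In mouse 5, 4 cells with at least 2 ependymal genes held 289 of 312 Mt3 UMIs and 510 of 512 Nnat UMIs. Without such cells, Mt3 in the AC-like cells of mice 4 to 7 was at 35.0 (1 UMI), 537.3, 41.5 and 54.9 CPM, and Nnat at 35.0 (1 UMI), 46.7 (2 UMIs), 37.8 and 149.4 CPM, so that the ages overlapped for both genes. Ntrk2 was then left with 69.9 CPM (2 UMIs) and 443.9 CPM at P43, against 71.7 and 187.5 CPM at P70. Of the P70 cells, 4 in mouse 6 and 16 in mouse 7 had at least 2 ependymal genes, and without them Gfap was at 1125 and 142.1 CPM (116.8 CPM, 5 UMIs, in mouse 5), Serpina3n at 1114 and 268.8 CPM and C4b at 573.9 and 241.0 CPM. In AC-like cells of mouse 7, Tppp3 alone made up 153.3 of the 180.3 CPM of the ependymal markers. It was also at 41.0 CPM in OL-like cells of that mouse, so the 16 cells are not called ependymal here. After cells with at least 2 ependymal genes were left out, the 10 genes summed to 1294 and 1682 CPM at P43 (mean 1488 ± 274.4, SD, n = 2). At P70 they summed to 3757 and 1773 CPM (mean 2765 ± 1403, SD, n = 2). Both P70 mice were then above both P43 mice, the reverse of the order over all AC-like cells. This order rests on 37 UMIs of the 10 genes in mouse 4, 21 of them of Igfbp5 and 8 of Gja1, and on 72 in mouse 5. The AC-like cells of mouse 4 also held 5313 CPM of endothelial and 2361 CPM of mural markers. The part of such cells in the order was not tested. Mouse 5 (1682 CPM) lay close to mouse 7 (1773 CPM), so the order is not firm.

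**Figure D2:**
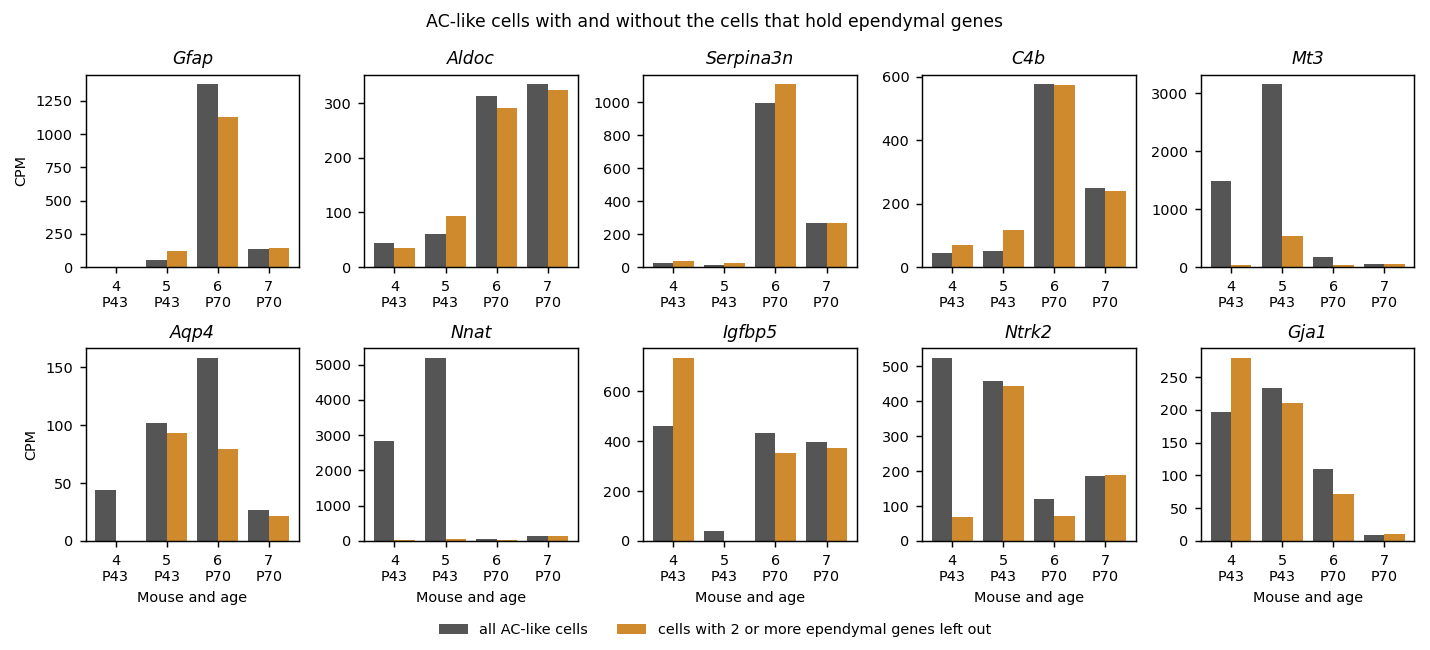
CPM (linear axes, 1 bar per mouse) of each gene in all AC-like cells (dark grey) and after cells with UMIs of at least 2 ependymal genes were left out (orange). The P43 bars of Mt3 and Nnat go from 1487 CPM or more to 537.3 CPM or less, while Gfap in mouse 6 goes from 1379 to 1125 CPM and C4b from 578.2 to 573.9 CPM.

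Single cells also weighed on mouse 6. One AC-like cell of that mouse, with 14582 UMIs, 14 of them of the reporter, and 5 ependymal genes, held 293 UMIs of the 10 genes. It held 107 of the 427 Gfap UMIs and contributed 43 of 54 Mt3 UMIs and 28 of 49 Aqp4 UMIs of its mouse. Without it, Mt3 was at 37.3 CPM, Aqp4 at 71.2 CPM and Gfap at 1085 CPM in mouse 6, and the summed level was 3539 CPM. The cell with 108 Gfap UMIs remained in these values.

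Within the AC-like cells, the genes did not rise and fall together. Sub-clusters, named here by leading genes only, drew on different mice. The Gfap/Chl1 sub-cluster (66 cells, 47 of them from mouse 6) held 1167 CPM of Gfap, 1097 CPM of Serpina3n and 557.8 CPM of C4b in mouse 6, and its 13 cells of mouse 7 only 36.2, 180.8 and 135.6 CPM. The Gfap/C4b sub-cluster, with 26 of 29 cells from mouse 7, held 653.0 CPM of Gfap, 1056 CPM of Serpina3n and 861.4 CPM of C4b in that mouse. Each P70 tumor had a group of cells with high levels of these 3 genes.

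The Mt3/Clu sub-cluster of mouse 7 (53 cells) held 151.6 CPM of Gfap, close to the 138.4 CPM of all AC-like cells of that mouse. It was high in Aldoc (641.6 CPM), Ntrk2 (384.4 CPM), Nnat (343.8 CPM), Mt3 (208.5 CPM) and Aqp4 (100.2 CPM), and low in Serpina3n (113.7 CPM) and C4b (70.4 CPM). Clu and Sox9, which serve resting astrocytes, were at 595.6 and 281.6 CPM there, and the ependymal regulator Foxj1 had 1 UMI, though over all mice the sub-cluster raised 9 of 10 ependymal markers. The largest group of mouse 7, the Igfbp5/Npy sub-cluster (81 cells), held 578.6 CPM of Igfbp5 but 17.0 CPM of Gfap and no UMI of Mt3 or Aqp4 among 705144 UMIs. A Ttr/Postn sub-cluster (32 cells of mouse 7) held 559.4 CPM of C4b and 256.7 CPM of Gfap with 32.9 CPM of Aldoc. Some of these groups held Sox10 with Foxd3, a neural crest regulator, and Cdh19, a cadherin of crest-derived glia, genes named after their values were seen. Foxd3 was at 233.3 CPM in the Gfap/Chl1 cells of mouse 6, 210.6 CPM in the Ttr/Postn cells and 111.2 CPM in the Gfap/C4b cells of mouse 7, and had no UMI in the Mt3/Clu cells of that mouse. Cdh19 was at 142.2, 355.4 and 159.8 CPM in the first 3 of these and at 21.7 CPM in the Mt3/Clu cells. In the Gfap/Chl1 cells of mouse 7, Foxd3 had no UMI and Cdh19 was at 18.1 CPM (2 UMIs). In the Igfbp5/Npy cells of that mouse, Foxd3 was at 7.09 CPM and Cdh19 at 39.7 CPM. The Igfbp5/Npy cells of mouse 7 had no UMI of Slc1a2 or Sox9. As the sub-clusters were formed from these genes among others, these levels describe them and test nothing.

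**Figure D3:**
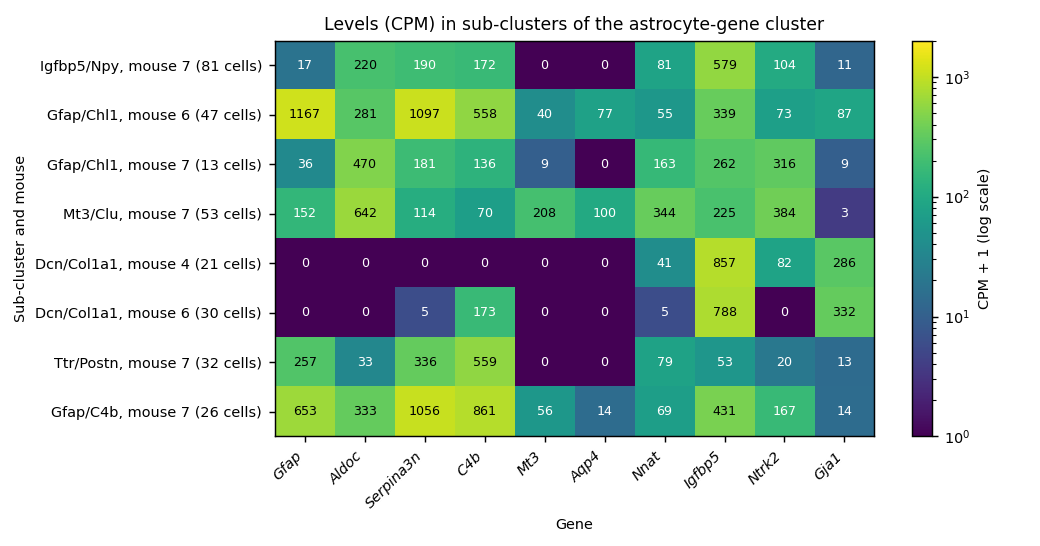
Level in CPM (number in each field, colour on a log scale) of the 10 genes in each sub-cluster of the astrocyte-gene cluster, for every mouse with at least 10 cells of it. Gfap and Serpina3n are highest in the Gfap/Chl1 cells of mouse 6 and the Gfap/C4b cells of mouse 7, C4b is highest in the latter, and Mt3 and Aqp4 in the Mt3/Clu cells, while the Dcn/Col1a1 cells hold mainly Igfbp5 and Gja1.

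Detection cell by cell showed how often 2 genes were found together. The pairs given are examples, and others went the opposite way. At 2000 UMIs, an AC-like cell held on average 2.70 of the 10 genes in mouse 6 (40 cells) and 2.40 in mouse 7 (195 cells). The mean was 0.833 in the 6 cells of mouse 4 and 2.67 in the 9 cells of mouse 5. OL-like cells held 0.305 or less, but OPCs held 2.19 in mouse 5 (16 cells) and 2.20 in mouse 7 (96 cells). No AC-like cell of mouse 6 held more than 8 and none of mouse 7 more than 7 of the genes. In mouse 7, Serpina3n was found in 60.7% of the 28 cells with Gfap and in 28.1% of the others, and C4b in 51.6% of the 64 cells with Serpina3n and in 28.2% of the others. In mouse 6, C4b was found in 72% of the 25 cells with Serpina3n and in 46.7% of the others, whereas Serpina3n was nearly as frequent without Gfap (60%) as with it (65%). Nnat was found in 55% of the 20 cells of mouse 7 with Mt3 and in 20.6% of the others, and Ntrk2 in 65% and 26.3%. In the opposite direction, C4b was found in 31.5% of the 89 cells of mouse 7 with Aldoc and in 39.6% of the others. Gja1 was found in 0% of the 20 cells of mouse 6 with Gfap and in 20% of the others. These shares come from 1 random draw per cell.

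The reporter was seen in most AC-like cells at P70 and in fewer at P43. At P70, 38 of 40 thinned AC-like cells of mouse 6 and 179 of 195 of mouse 7 had a reporter UMI at 2000 UMIs, and at P43 2 of 6 of mouse 4 and 3 of 9 of mouse 5. As a background, myeloid cells held 19.3 CPM of the reporter. The 16 cells of mouse 7 without one held 2.06 of the 10 genes on average, against 2.43 in cells with one.

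To show the sequence at the starts of these genes, promoter windows from RefSeq (build GRCm38.p6, 250 bases before to 50 bases after a start) were searched for the palindrome TTCNNNGAA, which STAT factors of the reactive astrocyte response can bind. Windows of 8 of the 10 genes were searched, and Aldoc has 2. None was found for C4b, and Aqp4 was left out of the search. The windows of Gfap (chr11:102897151-102897450, minus strand) and of the downstream start of Aldoc (chr11:78323948-78324247, plus strand) held it, and those of Serpina3n, Mt3, Nnat, Igfbp5, Ntrk2 and Gja1 and the upstream start of Aldoc did not. Of all 32851 windows, 8.3% held TTCNNNGAA and 1.15% its stricter form TTCCNGGAA, which both printed windows contain. The match of Gfap begins 2 bases before the start and those of Aldoc 124 and 83 bases before it. Matches to TTCNNNGAA are in capitals, and they are a description of the letters, not shown to be bound here. The printed starts lie inside the genes as given above.
Gfap: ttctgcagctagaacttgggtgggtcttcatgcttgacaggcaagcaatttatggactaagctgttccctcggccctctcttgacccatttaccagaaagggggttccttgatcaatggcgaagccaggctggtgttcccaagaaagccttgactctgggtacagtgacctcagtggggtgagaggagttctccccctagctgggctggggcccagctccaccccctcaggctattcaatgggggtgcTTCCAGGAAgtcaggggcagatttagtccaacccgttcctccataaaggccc
Aldoc: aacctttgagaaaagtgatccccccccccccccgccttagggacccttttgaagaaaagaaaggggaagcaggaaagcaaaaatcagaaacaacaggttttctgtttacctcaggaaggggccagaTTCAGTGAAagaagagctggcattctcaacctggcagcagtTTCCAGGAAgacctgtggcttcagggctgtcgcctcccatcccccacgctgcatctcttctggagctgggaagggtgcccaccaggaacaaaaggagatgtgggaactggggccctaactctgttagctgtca

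Outside the AC-like cells, the genes were found in different classes. Serpina3n and C4b were found in the oligodendrocyte lineage. OL-like cells had 4.91 and 6.43 CPM of C4b at P43 and 21.7 and 65.9 CPM at P70, and 9.13, 3.21, 7.68 and 25.2 CPM of Serpina3n in mice 4 to 7. In the Mal/Mog cluster C4b was at 69.9 and 1.61 CPM at P43 and 75.4 and 174.2 CPM at P70, and Serpina3n at 14.8 and 0 CPM at P43 and 44.7 and 105.4 CPM at P70. The reporter in this cluster was at 238.5 and 202.5 CPM at P43 and at 1838 and 1036 CPM at P70, and its part in these levels was not tested. Mature oligodendrocytes (MOL) of mouse 7 reached 465.9 CPM of C4b (124 UMIs), against 12.6 and 24.1 CPM in those of mouse 4 and mouse 5. Serpina3n in MOL reached 88.1 and 53.0 CPM at P43 and 180.3 CPM in the P70 mouse 7, and mouse 6 had 1 such cell. The MOL of mouse 7 carried 672.5 CPM of the reporter and those of mouse 4 and mouse 5 carried 7.56 and 26.5 CPM, and the part of this difference in the levels was not tested.

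OPCs held Nnat, Ntrk2, Mt3 and Aldoc, and C4b and Serpina3n as well. In the 112 OPCs of mouse 7, Nnat was at 512.3 CPM, Ntrk2 at 323.8 CPM, Mt3 at 268.2 CPM and Aldoc at 164.3 CPM, and the first 3 exceeded the AC-like levels of the same mouse. In the 22 OPCs of mouse 5, Nnat was at 584.2 CPM, Ntrk2 at 406.1 CPM, Mt3 at 327.7 CPM and Aldoc at 114.0 CPM. C4b was at 130.5 CPM (54 UMIs) and Serpina3n at 84.6 CPM (35 UMIs) in the OPCs of mouse 7. Both were above the OL-like levels of that mouse (65.9 and 25.2 CPM). In the OPCs of mouse 5, C4b had 4 UMIs and Serpina3n 5 UMIs. No OPC in either mouse had a UMI of Gfap or Gja1. NB-like cells were the next in order for Nnat, with 472.5, 452.5, 115.8 and 105.0 CPM in mice 4 to 7, though mouse 5 had only 9 such cells and those of mouse 4 held 23760 CPM of OL-like markers, which goes against their name. Their Ntrk2 was at 27.9 CPM and their Mt3 at 23.7 CPM in mouse 7, where they were most numerous.

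In each class of vessel cells 1 of the 10 genes had enough counts for a test. Gja1 in endothelial cells (EC) was at 81.6 and 71.9 CPM at P43 and at 253.2 and 267.8 CPM at P70, so that the ages did not overlap. Igfbp5 in mural cells was at 18.9 and 5.21 CPM at P43 and at 65.0 and 183.8 CPM at P70. Mouse 7 had 36 EC and 36 mural cells, with 20 UMIs of Gja1 and 17 UMIs of Igfbp5. The Dcn/Col1a1 sub-cluster held more of both genes, with 857.3 and 788.0 CPM of Igfbp5 and 285.8 and 332.1 CPM of Gja1 in mouse 4 and mouse 6, and no Gfap, Aldoc, Mt3 or Aqp4 UMI in its 55 cells. In myeloid cells, which serve as the background, no gene passed 20.8 CPM in a mouse, and the 10 genes were found in 3.23% or less of the thinned cells each.

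**Figure D4:**
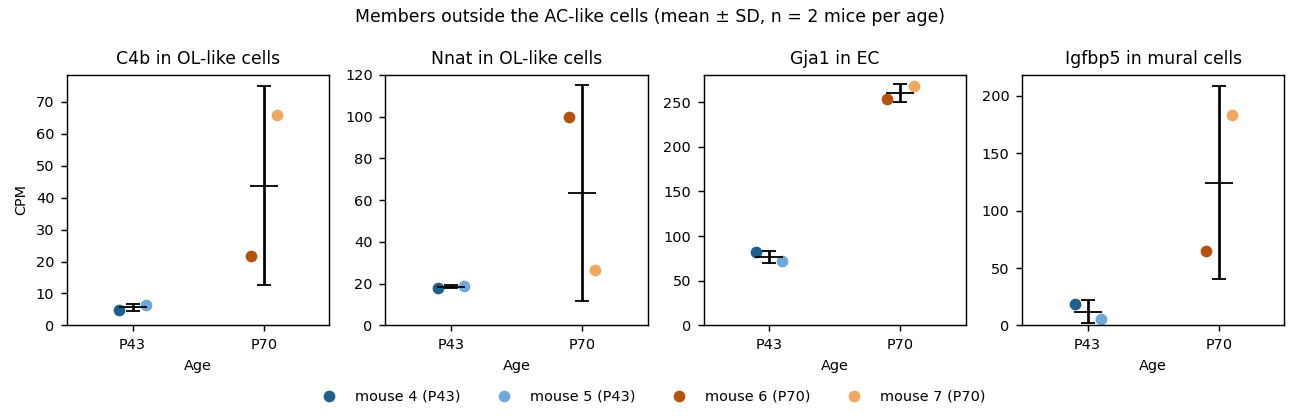
CPM of C4b and Nnat in OL-like cells, Gja1 in endothelial cells and Igfbp5 in mural cells by age, with 1 point per mouse and the mean ± SD of 2 mice. Gja1 rises from 76.8 to 260.5 CPM. Its P70 points lie close together, but that of mouse 7 rests on 20 UMIs, so the spread is not well known. The P70 mice differ widely in the other 3 panels.

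The change with age was tested on UMI sums per mouse across all genes with edgeR's quasi-likelihood test and Benjamini-Hochberg adjustment, 2 mice against 2. Each library is from a separate mouse, so that library, depth and tumor cannot be told apart from the mouse. In EC, 9.84% of the 8783 genes tested were called, 6.28% as higher and 3.55% as lower at P70. Gja1, the only one of the 10 genes with enough counts there, rose by 1.85 on the log2 scale (SE 0.21, edgeR adjusted p = 8.86e-05). Its mean went from 76.8 ± 6.85 to 260.5 ± 10.3 CPM (SD, n = 2 each). Without mouse 4, no gene was called in EC, and the change of Gja1 was 1.90 with an adjusted p of 0.204. In mural cells 19% of 8526 genes were called, 10.8% as higher and 8.21% as lower at P70. Igfbp5, again the only one tested, rose by 3.13 on the log2 scale (SE 0.53, edgeR adjusted p = 0.000849). Its mean went from 12.1 ± 9.71 to 124.4 ± 83.9 CPM (SD, n = 2 each). Igfbp5 rested on few mural cells at P70, as 1 cell held 31 of its 66 UMIs in mouse 6 and 1 held 9 of its 17 in mouse 7. It lost the call without mouse 6 (4.21, adjusted p = 0.202) or mouse 7 (2.78, adjusted p = 0.107).

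In OL-like cells edgeR called 0 of 11529 genes (0%), with 510 at an unadjusted p under 0.05, and DESeq2 called 39. Of the 10 genes, 7 could be tested. C4b had a log2 change of 2.90 (SE 0.57) with an adjusted p of 0.9999 in edgeR and 0.00139 in DESeq2. Of the 1735 OL-like cells of mouse 4, 873 fell in a cluster of shallow cells that held 10 of the 313 cells of mouse 6, and its part in the comparison was not tested.

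In AC-like cells 6.23% of 4235 genes were called, 0.425% as higher and 5.81% as lower at P70. Of the 10 genes, Aldoc, Serpina3n and C4b were called higher and Mt3 and Nnat lower. Without mouse 5, Aldoc (adjusted p = 0.158), Serpina3n (0.171), C4b (0.208) and Mt3 (0.0536) lost the edgeR call, and without mouse 4 Aldoc did (0.0612). Igfbp5 gained a call without mouse 4 (0.0125), Gfap without mouse 7 (8.25e-10) and Gja1 without mouse 6 (1.50e-05). As the genes were chosen from these cells, nothing is read from these calls. Of the ependymal list, 9 of 10 genes were tested and 8 were called lower at P70, among them Foxj1, which had 349.8 and 700.6 CPM at P43 and 6.46 and 1.35 CPM at P70, and their part in the other calls was not tested.

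Lists of related genes, without the 10 genes, were compared between AC-like and OL-like cells of the same P70 mice, again as a description. Of all 16306 genes with a UMI, 2.9% were at least 2-fold higher and 2.03% at least 2-fold lower in AC-like cells in both P70 mice, with 10 CPM added to each level, and the median log2 ratio was 0 in mouse 6 and -0.01 in mouse 7. Of 29 homeostatic astrocyte genes, 12 were higher in this sense and 0 lower, with median log2 ratios of 2.05 and 1.53. Apoe, the lipid carrier, was at 6347 and 2389 CPM in AC-like cells, against 181.9 and 50.9 CPM in OL-like cells. Cst3, a secreted protease inhibitor, was at 1547 and 3741 CPM, and Cpe, a peptide-processing enzyme, at 772.0 and 150.6 CPM. At P43, Apoe was at 3192 and 5493 CPM in AC-like cells, within the P70 range. With age, Sox9 was the only one of 17 genes of this list tested that was called in AC-like cells, as lower at P70. The part of the P43 cells with ependymal genes in this call was not tested.

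Of 11 pan-reactive genes, 5 were higher in AC-like than in OL-like cells (Vim, Cd44, Hspb1, Cxcl10 and Cp), with median log2 ratios of 2.77 and 0.92. Vim, an intermediate filament partner of Gfap, was at 3447 and 2495 CPM at P70, and in the AC-like cells of P43 at 546.6 and 1066 CPM, and it was called higher at P70. Cd44, a hyaluronan receptor, was at 155.0 and 69.5 CPM, and Cxcl10, an interferon-induced chemokine, at 171.2 and 20.9 CPM. Of the 11 genes of the A1 list, which was described for inflammatory stimuli, 4 were higher, and of the 12 genes of the A2 list, described for ischemia, 3 were higher. Examples were H2-D1 (1011 and 81.7 CPM), Psmb8 (71.1 and 52.0 CPM) and Ggta1 (87.2 and 24.3 CPM) for the former and S100a10 (245.5 and 259.3 CPM), Emp1 (67.8 and 84.4 CPM) and Ptx3 (51.7 and 71.6 CPM) for the latter. With age in AC-like cells, 0 of 3 A1 genes tested were called, and of 4 A2 genes tested Tm4sf1 was called lower.

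Of 14 regulators of glial fate and reactivity, 7 were higher in AC-like cells (Stat3, Il6st, Socs3, Hes1, Id1, Id3 and Sox2), with median log2 ratios of 1.12 and 1.26. Id3, an inhibitor of bHLH factors, was at 985.2 and 817.0 CPM. Nfib (387.6 and 469.9 CPM) and Nfia (190.6 and 270.1 CPM), which drive gliogenesis, did not reach 2-fold in both mice. Socs3, the feedback inhibitor of STAT3 signaling, was called higher at P70 in AC-like cells, and also in EC and in mural cells. The metallothioneins Mt1 (949.7 and 976.3 CPM) and Mt2 (319.8 and 115.5 CPM) did not reach 2-fold in both mice either, and Mt1 was called lower at P70 from 3301 and 6885 CPM at P43. For Mt1, too, the part of the P43 cells with ependymal genes was not tested. The connexin genes Gjb2 and Gjb6 had at most 7 UMIs in the AC-like cells of any mouse. The ependymal list had 1 of 10 genes, Tppp3, higher than in OL-like cells at P70.

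Over 43 sums of a class in a mouse with at least 20000 UMIs each, the genes whose level followed the mean of the 10 genes most closely were Csmd1 (Pearson's r = 0.86), 2810459M11Rik (0.86), Rgs20 (0.84), Npy (0.83) and Nkain4 (0.82). Sums of a mouse share a library and sums of a class share a cell type, so that the correlations describe these points and carry no p. Of the 10 genes themselves, Aqp4 (0.90) followed their common mean best and Gja1 (0.42) least. Each of the 10 genes is part of that mean, so these values cannot be compared with those of the genes outside the set.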

How the data were processed

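Single cells of 4 HGG-MYCN tumors were analysed, 2 of P43 and 2 of P70, grouped by the age in the labels. The files deposited by the authors hold unnormalized UMI counts of each gene in each barcode, made per the submitters' processing notes with Cell Ranger 6.0.2 on mm10, to which features for FLUC and human MYCN had been added. Barcodes needed at least 200 genes, no more than 40000 UMIs and a mitochondrial share under 25%, and were clustered with Seurat 5.3.0 (R 4.3.3; 2000 variable genes, 30 principal components, integration across mice, resolution 0.5). A cluster was named from markers 2-fold higher with 10 CPM added, at least 3 of them, and as reporter-bearing where the reporter passed 500 CPM over all mice. Scrublet (scanpy 1.11.5) marked 34 of 10975 cells, 0.31%, which is too few for a working caller, so no doublet was removed. Levels are UMIs summed per class and mouse. Shares were taken after thinning each cell to 2000 UMIs, with exact Clopper-Pearson 95% intervals (scipy 1.17.1). Age was tested with edgeR 4.0.16 on sums with at least 10 cells in each mouse (TMM scaling, adjusted p under 0.05) and DESeq2 1.42.0 as an alternative. The edgeR step was tested on simulated data. Named are the 10 genes, the 3 genes of each list with the highest mean level in P70 AC-like cells, and the 5 genes outside the set whose log2(CPM + 1) correlated best with the mean of the 10. Other genes of a list are named where they were counted as higher or called, or as markers of a class, and were chosen after their values were seen.

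The 10 genes and the lists were chosen with earlier results of these data known. The reporter limit, the Dcn/Col1a1 sub-cluster and the Mal/Mog cluster were set after seeing the data. Libraries of other ages were not analysed here.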

Additional observations from a re-analysis of the deposited data

Results flagged for a closer look

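For 2 genes the change from P43 to P70 had opposite directions in different cells, in every mouse of one age against every mouse of the other. The difference between the cells was not tested, and the share of all genes with such opposite changes was not counted. The mean level of Nnat changed by -3916 CPM in AC-like cells, from 4021 to 105 CPM, and was higher at P70 in OL-like cells (18.6 to 63.3 CPM) and in the Mal/Mog cluster (4.88 to 41.7 CPM). The Mal/Mog cluster also held more of the reporter at P70, and its part in this change was not tested. Of the P43 Nnat UMIs in AC-like cells, 129 of 130 in mouse 4 and 510 of 512 in mouse 5 were in cells with ependymal genes. The mean level of Gja1 changed by -156 CPM in AC-like cells (215 to 59.6 CPM). This mean at P43 rests on few UMIs of Gja1, 9 for mouse 4 plus 23 for mouse 5. In OL-like cells the mean of Gja1 changed by -12.1 CPM (from 16.2 CPM), and in EC it was higher at P70 (76.8 to 260.5 CPM). The OL-like change lay mainly in mouse 4, whose level was 26.7 CPM. Mouse 5, also of P43, had 5.79 CPM, little more than mouse 6 (4.11 CPM) or mouse 7 (4.28 CPM).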

How the results depend on the processing

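The P43 sum of the 10 genes in AC-like cells (7517 CPM) moved to 11955 CPM with a limit of 60000 UMIs, 12931 CPM without integration and 11349 CPM without the 5% highest Scrublet scores. It moved to 1488 CPM without cells with ependymal genes, on 37 and 72 UMIs (P70 then 2765 CPM, which turns the order of the means). It ranged from 5662 to 9372 CPM with 1 mouse left out. The P70 sum (3072 CPM) stayed within its SD of 1764 CPM in 11 alternatives. With 2 mice, the value with 1 left out always lies within that wide SD, so the count is no sign of stability. The P70 sum ranged from 1824 to 4319 CPM with 1 mouse left out. Of the P70 levels of single genes, those of Aldoc (5 alternatives) and Igfbp5 (4) moved beyond their SD. Their evenness between the mice depended on the setting. The SD of Aldoc went from 15.7 to 122.7 CPM with under 10% mitochondrial UMIs. That of Igfbp5 went from 24.4 to 119.4 CPM with the whole cluster. Genes per AC-like cell at P70 (2.55) moved to 2.30 with under 10% mitochondrial UMIs, 2.90 without integration, 2.31 with the whole cluster (added after seeing the data), 1.74 thinned to 1000 UMIs and 3.80 unthinned, and ranged from 2.40 to 2.70 by mouse. Called genes in AC-like cells (264) became 726 without a filter and 139 with the whole cluster, and 68 (without mouse 5) to 322 with 1 mouse left out. In OL-like cells 0 became 39 in DESeq2 and 2 without a filter, and 0 to 0 with 1 mouse left out. In EC 864 became 239 in DESeq2, and 0 (without mouse 4) to 1291. In mural cells 1618 became 574 in DESeq2, and 0 (without mouse 6) to 1072. Without TMM scaling, 732 mural genes were higher and 1142 lower (918 and 700 with it), and in EC 500 and 457 (552 and 312 with it). The causes were not tested. The AC-like age fit without cells with ependymal genes or with reporter cells only was not run, as under 10 cells were left in a mouse. No paired analysis was possible because the mice of the 2 ages are different animals, and their replicate numbers only name them. Depth limits the P43 AC-like cells (45740 and 98482 UMIs) and, among the cells tested for age, the EC (74693 UMIs) and mural cells (92514 UMIs) of mouse 7.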
